A study of Homo sapiens with 6 samples.

Results

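Expression of 9 genes of MHC class I antigen presentation was examined by RNA-seq in HGC27 cells, an established gastric cancer cell line. The genes were *HLA-B*, *HLA-C*, *HLA-E*, *HLA-F*, *B2M*, *TAP1*, *TAP2*, *PSMB8* and *PSMB9*. They were chosen by name and made up 9 of the 39739 gene rows in the deposited expression values. The study compared 3 libraries of HGC27-FN1 3′-UTR cells, which carried a stable lentiviral overexpression of the *FN1* 3′-UTR, with 3 libraries of HGC27-control cells of the control genotype. All cells were grown in RPMI-1640 medium with fetal bovine serum, and the sources do not give how many clones either line came from. The labels do not state whether the replicates were separate cultures, so the p-values measure only the spread between these libraries, which may be technical.

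MHC class I molecules display peptides from inside the cell to CD8+ T cells. Proteasomes cut proteins into peptides, the TAP1 and TAP2 transporter carries these into the endoplasmic reticulum, and there they are loaded onto a heavy chain bound to the light chain β2-microglobulin. Interferons are known to raise most of these genes together. The promoters of heavy chain genes and *B2M* share a control module read by NLRC5, RFX, CREB and ATF, and NF-Y proteins. Sites for NF-κB and IRF proteins lie beside it. Tumor cells often carry low levels of this pathway. MHC class I also serves as a ligand of receptors that restrain NK cells.

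Of the 9 genes, 1 was called in the comparison at an adjusted p under 0.05 (11.1%), where 13.0% of all genes tested were called in either direction and 5.62% were called higher. The share among the 9 is thus near that of all genes. The gene was *B2M*, the light chain, and it was higher in HGC27-FN1 3′-UTR cells. Its RPKM was 1.31 times that of HGC27-control cells by the ratio of the means. None of the 4 heavy chain genes, the 2 transporter genes and the 2 immunoproteasome genes was called. Of the 9 log2 fold changes, 3 were above 0 and 6 were below 0. Whether the genes moved together was not tested. In bulk RNA, a change in the share of cells that express a gene and a change in RNA per cell cannot be told apart.

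Promoter sequences are given first because most of these genes are known to respond to interferons. RefSeq windows of 300 bases around a start site (GRCh38.p14) were at hand for 8 of the 9 genes, in 10 windows. For *HLA-E*, no window was used here. The IRF motif was searched on both strands as GAANNGAAA, and a second form, GAAANNGAA, was added after the windows had been read. The 2 forms overlap where GAAA repeats follow each other, as in *TAP2* and *PSMB8*. The first form lay in the windows of 4 genes and in 7.66% of all 35116 promoter windows, and the second in those of 5 genes and in 8.11% of all windows. One example for each gene with a match is given below, 5′ to 3′ on the strand of the gene, with the match in capitals, so that the repeated GAAA or TTTC element can be compared between genes.
HLA-B, chr6:31357315-31357344, reverse strand: ctcccctgagTTTCACTTCttctcccaact
HLA-C, chr6:31272224-31272253, reverse strand: ctcccctgagTTTCACTTCtcccaacctgc
HLA-F, chr6:29723269-29723298, forward strand: tccccagagtTTCTCTTTCtctcccaaccc
B2M, chr15:44711369-44711398, forward strand: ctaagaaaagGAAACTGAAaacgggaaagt
TAP1, chr6:32853818-32853847, reverse strand: ggcggccgctTTCGATTTCgctttccccta
TAP2, chr6:32838783-32838812, reverse strand: cttggctgggGAAGCGAAAgcgaaagctgc
PSMB8, chr6:32844026-32844055, reverse strand: tggctttcgcTTTCACTTCctcctccgaga

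*PSMB9* held neither form in its window. That window does not reach the *TAP1* match at chr6:32853818-32853847, which lies between the start sites used for *TAP1* (chr6:32853704) and *PSMB9* (chr6:32854192). A match is a run of letters and does not show that a factor binds there.

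Some elements of the control module were searched in the same windows, for all 8 genes, and the site of RFX proteins was not. The letters TGACG, the core of the X2 or CRE element read by CREB and ATF proteins, lay in the windows of *HLA-B*, *HLA-C*, *B2M*, *TAP2*, *PSMB8* and *PSMB9*, and in 24.6% of all windows. CCAAT, the core of the Y element read by NF-Y, lay in those of *HLA-B*, *HLA-C*, *HLA-F*, *B2M*, *TAP1* and *PSMB9*, and in 34.6% of all windows. The CCAAT matches of *TAP1* and *PSMB9* are the same bases, read from opposite strands in overlapping windows. The class I κB element, GGGGATTCC, was present for *HLA-B* among the 8 genes and in 0.285% of all windows. TTCNNNGAA, the STAT motif, lay in the windows of *TAP1* and *PSMB8*, and in 7.66% of all windows. The lines below show the light chain and a heavy chain at TGACG, and *HLA-B* at the κB element.
B2M, chr15:44711430-44711459, forward strand, TGACG: cttggagacaggTGACGgtccctgcgggcc
HLA-B, chr6:31357268-31357297, reverse strand, TGACG: ccaggatactcgTGACGcgtccccacttcc
HLA-B, chr6:31357337-31357366, reverse strand, class I κB: gcgcagcgttGGGGATTCCccactcccctg

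The values are RPKM, which is reads per kilobase of a gene's merged exons per 1000000 reads assigned to genes. Multiplying back gave whole reads for 100% of the values checked, which left out empty values and the highest counts. The depth recovered in this way ran from 16357085 to 29202046 assigned reads with the *FN1* 3′-UTR and from 22332816 to 37037532 in controls. Within each group, the libraries differed by more than sampling noise. Limma was run on log2(RPKM + 0.1), two-sided, with Benjamini-Hochberg adjustment over the 23299 genes tested, and all 9 genes passed the filter on low values. *FN1* over all its exons, which do not separate the 3′-UTR, was at 0.780 RPKM in HGC27-FN1 3′-UTR cells and 0.516 in controls. These means rest on 949 and 804 reads. The log2 fold change of *FN1* was 0.52 (adjusted p = 0.029, limma). It was called in 0 of 6 fits with a library left out (adjusted p from 0.061 to 0.098). Of the marker genes, all 5 of the epithelial list were called higher, with a summed RPKM of 18.15 to 27.01 against 2.593 to 2.985. Among these, *KRT19* was under 0.1 RPKM in every control library and passed the filter only through the HGC27-FN1 3′-UTR libraries. *VIM*, a mesenchymal marker, was at 304 and 303 RPKM. Leukocyte markers summed to at most 1.73 RPKM in any library, with 1 of 3 tested called lower (*NKG7*, 8 and 33 reads), *PTPRC* had at most 7 reads in a group, and the endothelial markers had at most 9. Those of fibroblasts, with *LUM* and *DCN* leading, summed to 13.1 to 15.2 against 7.02 to 9.14 RPKM, with 1 of 3 called higher. Over all tested genes, 5.62% were called higher and 7.36% lower. The part of these marker changes in the results below was not tested.

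*B2M* (chr15:44711477-44718877, forward strand) is the one gene of the 9 outside chromosome 6. It stood at 21.19, 19.93 and 19.92 RPKM in replicates 1 to 3 of HGC27-FN1 3′-UTR cells and at 14.75, 15.27 and 16.69 RPKM in those of HGC27-control cells. Every library with the *FN1* 3′-UTR lay above every control library. The means were 20.4 ± 0.727 and 15.6 ± 1.0 RPKM (SD, n = 3 each), and the log2 fold change, estimated with a standard error of 0.054, came to 0.39 (95% interval 0.25 to 0.52, adjusted p = 0.0095, limma). In fold, the interval ran from 1.19 to 1.43. The values rest on 8616 and 8636 reads in the 2 groups. No exon base of *B2M* was shared with another gene row, and none of the stretches of 50 bases in its principal transcript occurred in another gene. The principal transcript has 1705 bases, where the merged exons counted for *B2M* have 6089, and the rest was not searched.

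The size of the *B2M* difference was moderate among all genes. It ranked 735 of 23299 by p, and 645 of the genes called higher had a larger log2 fold change. Over all genes, 1310 were called higher (5.62%) and 1715 lower (7.36%), 3025 in either direction (13.0%). With median-ratio scaling in place of the deposited scaling, 1696 were called higher and 1330 lower, and the median log2 fold change of all genes moved from -0.035 to -0.003. An absolute log2 fold change above 1 with an unadjusted limma P under 0.05 was found for 575 genes (2.47%) and for 0 of the 9. These thresholds follow those of the study, which gives neither the base of the logarithm nor whether P was adjusted.

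**Figure D1:**
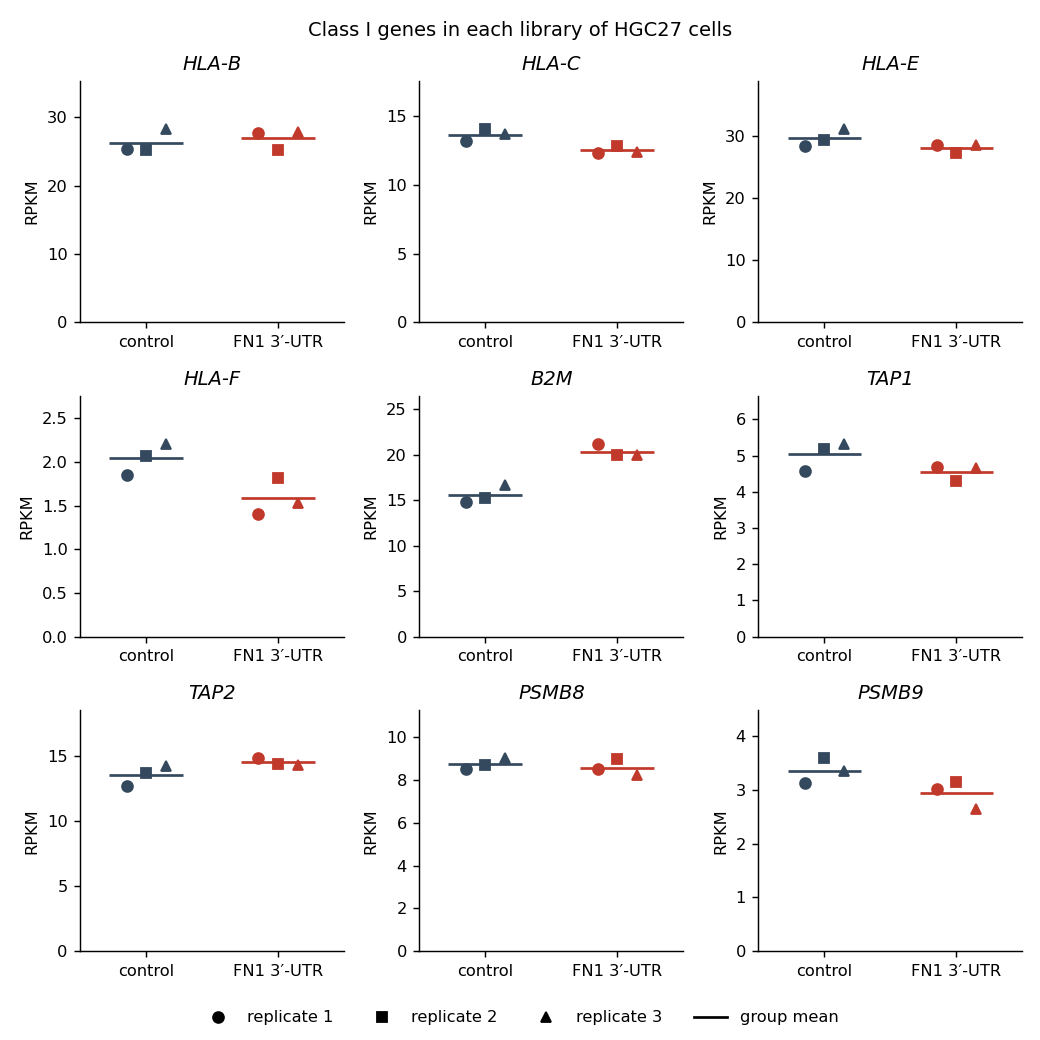
RPKM of the 9 class I genes in each of the 6 libraries, on axes that start at 0. Points are libraries, with a marker shape for each replicate number, and lines are group means; *B2M* is at 19.92 to 21.19 in HGC27-FN1 3′-UTR cells and 14.75 to 16.69 in HGC27-control cells, while *HLA-B*, *HLA-E*, *TAP1*, *PSMB8* and *PSMB9* overlap between the groups.

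Counted by overlap, the groups were apart for 4 of the 9 genes. *B2M* and *TAP2* were higher in every HGC27-FN1 3′-UTR library than in any control library, where 14.3% of all genes were so. *HLA-C* and *HLA-F* were lower in every such library, where 21.7% of all genes were so. Of these 4, *HLA-C*, *HLA-F* and *TAP2* did not pass the adjusted test. The median log2 fold change of the 9 genes was -0.08, beside -0.035 over all tested genes.

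The heavy chain genes lie on chromosome 6. *HLA-B* and *HLA-C* encode heavy chains that present to CD8+ T cells. *HLA-B* (chr6:31353872-31357188, reverse strand) was at 27.69, 25.23 and 27.91 RPKM with the *FN1* 3′-UTR and at 25.41, 25.21 and 28.27 RPKM in controls. The 2 groups covered nearly the same range. Its log2 fold change, estimated with a standard error of 0.061, came to 0.04 (adjusted p = 0.75, limma), with a 95% interval from 0.926- to 1.13-fold. An unnamed gene row on the opposite strand, XXbac-BPG248L24.12, shared 542 exon bases (18.0%) with *HLA-B*. It held 2239 reads with the *FN1* 3′-UTR and 2663 in controls, beside 5675 and 7203 for *HLA-B*. The strand setting of the counting is not given, so their reads may be mixed. The part of this in the *HLA-B* value was not tested.

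*HLA-C* (chr6:31268749-31272130, reverse strand) stood at 12.36, 12.87 and 12.39 RPKM in HGC27-FN1 3′-UTR cells against 13.20, 14.06 and 13.75 RPKM. All 3 control libraries were higher, by a small margin. The log2 fold change, estimated with a standard error of 0.037, came to -0.12 (unadjusted p = 0.015, adjusted p = 0.082, limma), and the fold lay between 0.862 and 0.978 at 95%.

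*HLA-E* and *HLA-F* encode nonclassical heavy chains. HLA-E presents leader peptides of other class I chains to NK cell receptors. *HLA-E* (chr6:30489467-30494205, forward strand) was at 28.42, 27.21 and 28.49 RPKM with the *FN1* 3′-UTR and 28.40, 29.28 and 31.02 RPKM in controls. Control replicate 1 lay within the range of the other group. The log2 fold change, estimated with a standard error of 0.042, came to -0.08 (adjusted p = 0.28, limma), with an interval of 0.885- to 1.02-fold.

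*HLA-F* (chr6:29722775-29738528, forward strand) was the lowest of the 9 genes. It was listed at 1.408, 1.811 and 1.530 RPKM in HGC27-FN1 3′-UTR cells and at 1.856, 2.070 and 2.207 RPKM in HGC27-control cells. The groups did not overlap, but replicate 2 of one and replicate 1 of the other lay close to each other. The log2 fold change, estimated with a standard error of 0.11, came to -0.35 (95% interval -0.63 to -0.08, unadjusted p = 0.018, adjusted p = 0.092, limma), on 486 and 812 reads. Limma's voom on the recovered reads called it lower, with a log2 fold change of -0.38 and an adjusted p of 0.011.

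Rows on the opposite strand overlap *HLA-F*. These were HCG4P11 with 701 shared exon bases, HLA-F-AS1 with 535 and RPL23AP1 with 257. The antisense gene *HLA-F-AS1* was called lower, at 0.922 ± 0.0286 against 1.41 ± 0.0541 RPKM (SD, n = 3 each), with a log2 difference of -0.56 (adjusted p = 0.009, limma). The libraries were strand-specific according to the study, but the counting's strand setting is not given in the sources used here. Reads of *HLA-F* and of its antisense rows may therefore be mixed, and the part of this in the *HLA-F* value was not tested.

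Related heavy chains can share reads. Of stretches of 50 bases in the principal transcripts, 2.54% in *HLA-B*, 6.79% in *HLA-C*, 5.13% in *HLA-E* and 1.70% in *HLA-F* also occurred in another gene. At 100 bases the share was at most 0.6%, in *HLA-E*. How reads with several matches were counted is not given, and the alleles of HGC27 cells were not analysed here.

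*TAP1* and *TAP2* encode the subunits of the peptide transporter. They sit with *PSMB8* and *PSMB9* in one stretch of 37753 bases (chr6:32821833-32859585). *TAP1* (chr6:32845209-32853978, reverse strand) was at 4.674, 4.302 and 4.653 RPKM with the *FN1* 3′-UTR and at 4.587, 5.188 and 5.326 RPKM in controls. The lowest control library lay inside the range of the other group. The log2 fold change, estimated with a standard error of 0.070, came to -0.14 (adjusted p = 0.24, limma), between 0.805- and 1.02-fold.

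*TAP2* (chr6:32821833-32838780, reverse strand) was listed at 14.80, 14.37 and 14.30 RPKM in HGC27-FN1 3′-UTR cells and at 12.65, 13.68 and 14.24 RPKM in controls. The groups were apart by a margin smaller than the spread of the controls. Its log2 fold change, estimated with a standard error of 0.049, came to 0.10 (adjusted p = 0.23, limma), with an interval of 0.987- to 1.16-fold. The row XXbac-BPG246D15.9, on the same strand, shared 2064 exon bases (32.3%) with *TAP2* and held 4912 and 5852 reads in the 2 groups. In the principal transcript of *TAP2*, 80.2% of stretches of 50 bases and 79.8% of those of 100 bases also occurred in another gene of GENCODE release 29. How reads in shared bases were divided is not given, so the level of *TAP2*, the separation of its groups and its ratio to *TAP1* are uncertain.

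*PSMB8* and *PSMB9* encode catalytic subunits of the immunoproteasome, which take the places of PSMB5 and PSMB6 in the standard proteasome. *PSMB8* (chr6:32840717-32844703, reverse strand) stood at 8.503, 8.961 and 8.245 RPKM against 8.527, 8.703 and 9.004 RPKM in controls. The groups overlapped. The log2 fold change, estimated with a standard error of 0.045, came to -0.03 (adjusted p = 0.72, limma), from 0.909- to 1.06-fold, and turned to 0.005 with median-ratio scaling.

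*PSMB9* (chr6:32844136-32859585, forward strand) was at 3.005, 3.146 and 2.642 RPKM with the *FN1* 3′-UTR and at 3.119, 3.581 and 3.349 RPKM in controls. Only replicate 2 of the first group reached the lowest control. The log2 fold change, estimated with a standard error of 0.085, came to -0.19 (adjusted p = 0.20, limma), with an interval of 0.761- to 1.01-fold. *PSMB8-AS1*, which overlaps *TAP1* and *PSMB8* on the opposite strand and *PSMB9* on the same strand, was called lower at 2.21 ± 0.0184 against 2.92 ± 0.268 RPKM (SD, n = 3 each), with a log2 difference of -0.38 (adjusted p = 0.025, limma). It was called in 1 of 6 fits with a library left out, and *HLA-F-AS1* in 6 of 6. *PSMB8-AS1* shared 456, 425 and 174 exon bases with *TAP1*, *PSMB8* and *PSMB9*.

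**Figure D2:**
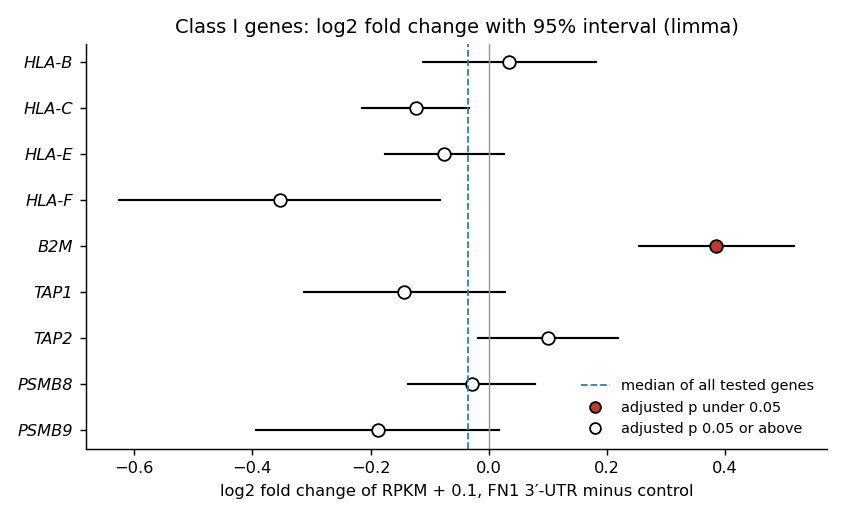
Log2 fold change of RPKM + 0.1 for the 9 class I genes (x axis), with bars for the 95% interval of limma, the median of all tested genes as a dashed line and a filled point where the adjusted p is under 0.05. *B2M* at 0.39 is the one filled point, and the intervals of *HLA-C* and *HLA-F* lie below 0.

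In HGC27-control cells the order of the levels was *HLA-E* (29.6 RPKM), *HLA-B* (26.3), *B2M* (15.6), *HLA-C* (13.7), *TAP2* (13.5), *PSMB8* (8.75), *TAP1* (5.03), *PSMB9* (3.35) and *HLA-F* (2.05). Neighbours in this order did not overlap between libraries, except *HLA-C* and *TAP2*. RPKM divides by all merged exons, and for *B2M* these come to 6089 bases where the principal transcript has 1705. Set per kilobase of the principal transcript, a scale added after the data were examined, *B2M* came first at 55.6 and *HLA-B* second at 51.2, with overlapping libraries. *TAP2* (34.6) and *HLA-E* (33.8) came next, also overlapping, and *PSMB9* (13.2) stood above *TAP1* (7.79). The order of the levels therefore depends on the length used, while the ratio of a gene's group means does not.

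Ratios between genes of one library do not depend on the scaling between libraries. The ratio of *B2M* to the summed *HLA-B*, *HLA-C*, *HLA-E* and *HLA-F* was 0.303, 0.297 and 0.283 in HGC27-FN1 3′-UTR cells and 0.214, 0.216 and 0.222 in HGC27-control cells. The light chain was higher relative to these heavy chains in all 3 libraries, by 1.35-fold (difference of log2 ratios 0.44, exact permutation test, two-sided, p = 0.1). With 3 libraries in each group, 0.1 is the smallest p that this test can give, so none of the 4 ratios could pass 0.05.

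The other 3 ratios were lower in every HGC27-FN1 3′-UTR library. *TAP1* to *TAP2* was at 0.316, 0.299 and 0.325 against 0.363, 0.379 and 0.374, a difference of -0.25 in log2. *PSMB8* to its standard counterpart *PSMB5* was at 0.128, 0.149 and 0.130 against 0.164, 0.159 and 0.152, a difference of -0.23. *PSMB9* to *PSMB6* was at 0.0768, 0.0814 and 0.0667 against 0.0912, 0.0952 and 0.0840, a difference of -0.27. Each gave p = 0.1 by the same exact permutation test, and over the 4 ratios the adjusted p is also 0.1. For the proteasome pairs, the standard subunits were on the higher side, with log2 fold changes of 0.20 for *PSMB5* (adjusted p = 0.070, limma) and 0.08 for *PSMB6* (adjusted p = 0.44).

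**Figure D3:**
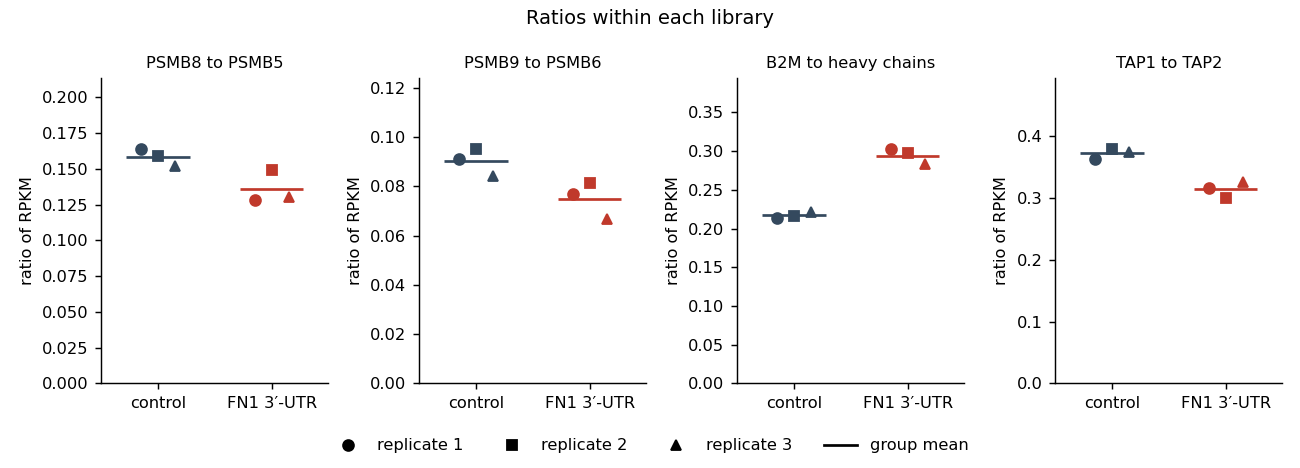
Ratio of RPKM between class I genes within each library, on axes that start at 0, with points for libraries and lines for group means. *B2M* to the 4 summed heavy chains (HLA-B, -C, -E and -F) is at 0.283 to 0.303 with the *FN1* 3′-UTR and 0.214 to 0.222 in controls, and the other 3 ratios are lower with the *FN1* 3′-UTR.

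Around the 9 genes, 56 further genes of the class I pathway were set out in 6 lists, of which 50 were tested, with 8 called higher and 2 lower, 10 in all, where 13.0% of all genes were called. These counts depend on single libraries. Without replicate 1, 2 or 3 of the HGC27-FN1 3′-UTR cells, 3, 2 and 3 were called higher, and without control replicate 2, 2 were called higher and 0 lower. Without replicate 1 of the HGC27-FN1 3′-UTR cells, 1 was called lower. Among 6 other heavy chain genes and pseudogenes tested, 0 were called, and all 6 log2 fold changes were below 0, from -0.39 to -0.04. The 7 genes of class I-like molecules and NK ligands that were tested also had 0 calls, with a median of -0.12.

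Of 7 genes for peptide loading and trimming, 2 were called higher, where 5.62% of all tested genes were called higher. *PDIA3*, a disulfide isomerase of the loading complex, was at 71.5 ± 0.760 against 61.6 ± 2.72 RPKM (log2 fold change 0.22, adjusted p = 0.017, limma). *CALR*, the chaperone calreticulin, was at 749 ± 14.7 against 650.9 ± 10.4 RPKM (log2 fold change 0.20, adjusted p = 0.013). The other 5 were not called and had log2 fold changes from 0.08 upward, among them *TAPBP*, the bridge between transporter and heavy chain, at 5.52 and 5.21 RPKM (adjusted p = 0.64). Both called genes also serve the folding of many other proteins. When each of the 6 libraries was left out in turn, *CALR* was still called in 4 of 6 fits (highest adjusted p 0.067) and *PDIA3* in 2 of 6 (0.063).

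None of 6 proteasome partners was called, where 13.0% of all tested genes were called. Beside *PSMB5* and *PSMB6*, *PSMB7* was at 77.9 and 77.1 RPKM (adjusted p = 0.87, limma), and its immunoproteasome counterpart *PSMB10* at 5.99 and 5.62 RPKM (adjusted p = 0.62).

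Of 13 transcription factors of class I promoters, 2 were called higher and 2 lower. Over all tested genes, 5.62% were called higher and 7.36% lower. *NFKB1*, a subunit of NF-κB, and *ATF1*, a factor of the CREB family, had log2 fold changes of 0.22 and 0.16 (adjusted p = 0.032 and 0.043, limma). *IRF2*, which binds IRF sites, was at 3.22 ± 0.164 against 4.15 ± 0.132 RPKM (log2 fold change -0.36, adjusted p = 0.013), and *RFX5*, a subunit of the RFX complex, was at 17.6 ± 0.639 against 20.6 ± 0.143 RPKM (log2 fold change -0.23, adjusted p = 0.012). With 1 library left out, *ATF1* was called in 0 of 6 fits and *NFKB1* in 1 of 6, while *RFX5* was called in 5 and *IRF2* in 4. *NLRC5*, the class I transactivator, was at 0.747 and 0.735 RPKM (adjusted p = 0.95). *IRF1*, an activator of class I genes under interferon, was at 1.33 and 1.27 RPKM (adjusted p = 0.83).

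Among 11 interferon receptor and JAK-STAT genes, 4 were called higher and 0 lower, beside 5.62% and 7.36% of all tested genes. *IRF9*, the DNA-binding part of the type I interferon complex, was at 2.63 ± 0.211 against 1.53 ± 0.224 RPKM (log2 fold change 0.75, adjusted p = 0.013, limma). The interferon-γ receptor genes *IFNGR1* and *IFNGR2* had log2 fold changes of 0.36 and 0.27 (adjusted p = 0.011 and 0.021). Leaving out 1 library kept *IRF9* and *IFNGR1* in 6 of 6 fits and *IFNGR2* in 2. Of 8 interferon genes listed, 6 had a row, and each of these had at most 2 reads in a group, so none was tested. *IFNG* was not analysed here.

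Interferon-stimulated genes outside the class I pathway gave a different count from the 9 genes. Of 32 listed, 24 were tested, with 16 called higher and 1 lower, where 5.62% of all tested genes were called higher and 7.36% lower. The median log2 fold change was 0.91, beside -0.08 for the 9 class I genes. Among those called higher, *OAS1*, *OASL*, *IFIH1* and *CXCL10* were under 0.1 RPKM in every control library. They passed the filter on low values only through the HGC27-FN1 3′-UTR libraries, so the filter itself favoured a higher value for them. They also enter the count called higher and the median. Neither is therefore a like comparison with the 9 genes, which passed the filter in both groups. Without replicate 1, 2 or 3 of the HGC27-FN1 3′-UTR cells, 10, 10 and 9 were called higher, and with a mean RPKM of at least 1, which leaves fewer genes to test, 8 were. *IFI44*, *OASL*, *OAS1* and *IFI6* led, with log2 fold changes of 1.54, 1.44, 1.32 and 1.29. The one called lower was *UBE2L6*, a conjugating enzyme for ISG15 (log2 fold change -0.47, adjusted p = 0.026, limma), named after its value was seen, and it was called in 1 of 6 fits with a library left out. *IFI44* and *IFI6* were called in 6 of 6. *OASL* and *OAS1* passed the filter on low values in 3 of these fits, and were called in 3 and 0 of them. The difference between the lists was not tested.

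**Figure D4:**
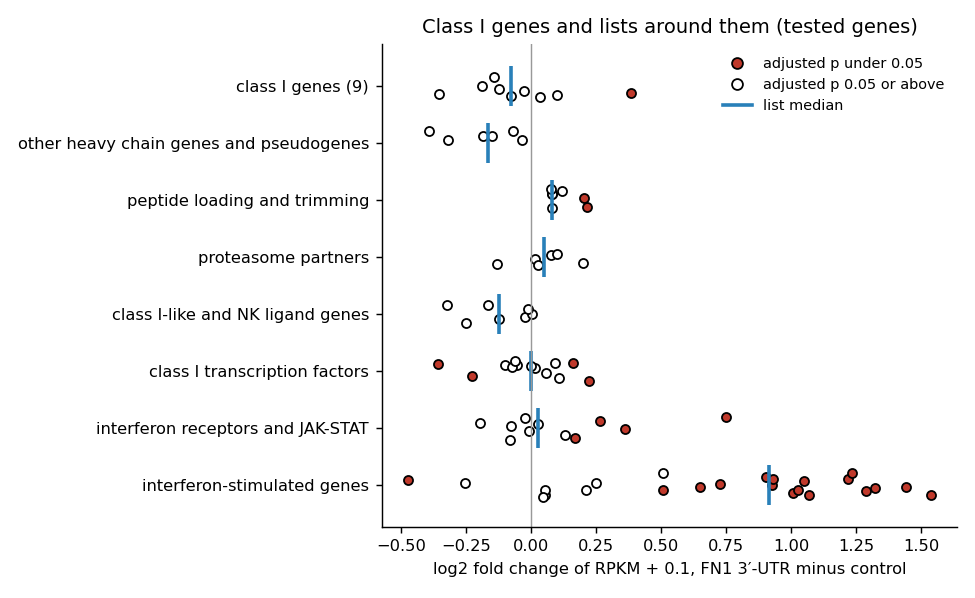
Log2 fold change (x axis) of every tested gene in the class I list and in 7 lists around it, one row for each list, with filled points for an adjusted p under 0.05 and a blue line at the list median. The class I genes have 1 filled point (*B2M*) and a median of -0.08, and the interferon-stimulated genes have 17 filled points and a median of 0.91. These include *OAS1*, *OASL*, *IFIH1* and *CXCL10*, which passed the filter on low values only through the HGC27-FN1 3′-UTR libraries. The filter favoured a higher value for them, so the medians are not a like comparison.

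MHC class II genes, which display peptides to CD4+ T cells, were mostly near 0. Only 3 of the 11 with a row were tested, and 0 were called, where 13.0% of all tested genes were called. *HLA-DRA* was not analysed here.

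The genes most like the 9 in pattern were found by Pearson's r over the 6 libraries with the mean of the 9 standardised levels, among 14627 genes with a mean RPKM of at least 1. They were *C9orf142* (0.990), *RPL18* (0.987), *MZT2A* (0.985), *CHMP1A* (0.984) and *FANCG* (0.978). This mean was lowest in control replicate 1 and highest in control replicate 3, so it did not follow the groups. For *B2M* alone, chosen after its result was seen, *PDLIM1*, *TMED10*, *SNRPD3*, *ALDH3B1* and *RASL11B* came first with r from 0.997 to 0.998, and 1189 genes had r above 0.9. All points share the 6 libraries, so these values are a description.

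The study also worked with 4 miRNAs in relation to the *FN1* 3′-UTR, and their seeds were compared with the 3′-UTRs of the class I genes, a search chosen after the values were seen. The mature RefSeq sequences follow, 5′ to 3′, with the seed (bases 2 to 8) in capitals.
let-7i-5p: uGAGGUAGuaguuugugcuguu
miR-423-5p: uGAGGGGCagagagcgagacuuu
miR-629-5p: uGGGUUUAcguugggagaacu
miR-296-3p: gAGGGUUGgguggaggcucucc

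No 2 of these seeds were the same. The letters that pair with a whole seed are CTACCTC for let-7i-5p, GCCCCTC for miR-423-5p, TAAACCC for miR-629-5p and CAACCCT for miR-296-3p. Each was found in 0 of the 9 principal 3′-UTRs, which ran from 53 bases in *PSMB9* to 1459 in *HLA-E*. Over the principal transcripts of 19656 genes, 8.28%, 12.9%, 6.19% and 7.43% held the match for the 4 miRNAs in that order. These 7 letters are therefore not in these windows, and *B2M*, with a 3′-UTR of 1285 bases, is among them.

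The 9 log2 fold changes were recomputed under 14 other settings. *B2M* was called higher in all 14, with log2 fold changes from 0.35 to 0.44, and the highest adjusted p was 0.048 (limma). The other 8 genes kept their side of the threshold in all settings except *HLA-F* with voom.

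**Figure D5:**
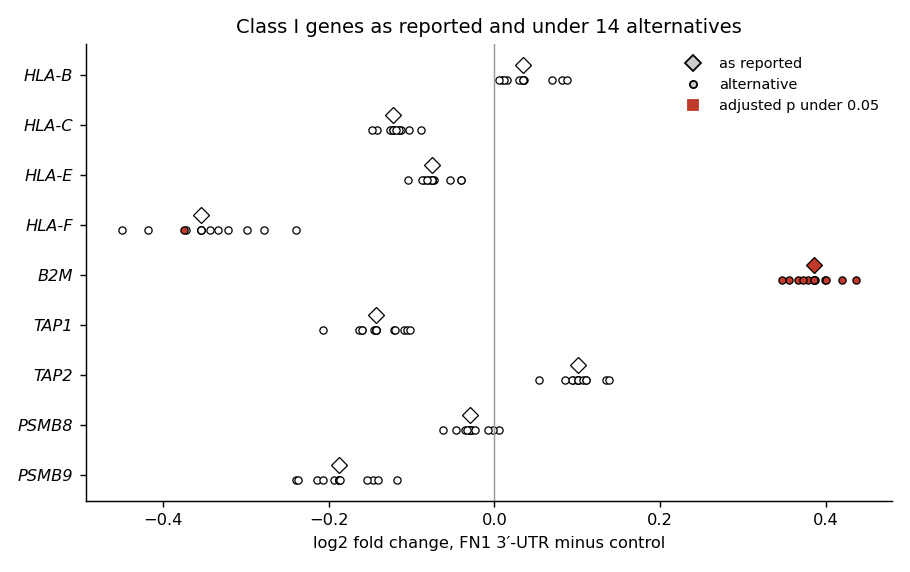
Log2 fold change (x axis) of the 9 class I genes as reported (diamonds) and under 14 alternatives (circles), filled where the adjusted p is under 0.05. All *B2M* points are filled and lie between 0.35 and 0.44, 1 *HLA-F* point (voom) is filled, and *PSMB8* crosses 0 in 1 alternative.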

How the data were processed

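The authors deposited 1 table of RPKM for each library, with replicates kept apart. The submitters' processing notes name Trimmomatic 0.36, STAR 2.5.3a, featureCounts and Subread 1.5.1 with GRCh38, and the strand and multi-mapping settings are not given in the sources used here. Reads were recovered as whole multiples of what 1 read is worth (tolerance 0.02). Genes that reached 0.1 RPKM in 3 libraries were fitted with limma 3.58.1 in R 4.3.3 on log2(RPKM + 0.1), with group as the only term and a trend in the prior variance. Fold changes on this scale understate changes of low genes. A call is an adjusted p under 0.05. The 9 genes and all lists were chosen with earlier results of these data known. From each list, at most 4 called genes with the largest absolute log2 fold change were named, plus 10 genes fixed by name. Some genes under this rule are not reported here. Exon lengths, 3′-UTRs and overlaps come from GENCODE release 29 and promoters and miRNAs from RefSeq GRCh38.p14. The alternatives were other pseudocounts, filters and scaling, no trend, voom, a replicate block and each library left out.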

Additional observations from a re-analysis of the deposited data

How the results depend on the processing

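Of 126 recomputed log2 fold changes of the 9 class I genes, 124 kept their direction and their side of the threshold. *PSMB8* reversed to 0.005 with median-ratio scaling, and *HLA-F* passed the threshold with voom on recovered reads, which also made 1 of the 9 genes called lower in place of 0. The cause was not tested.

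Same-numbered libraries shared little of their deviations from the group means, with correlations of 0.00244, 0.0211 and 0.0103. Differently numbered libraries were not compared, and whether libraries were prepared in matched pairs was not tested. With the replicate block, 564 genes were called higher and 598 lower over all genes, 2 and 1 in the 6 pathway lists, and 10 interferon-stimulated genes higher, while *B2M* had an adjusted p of 0.048. Without a trend in the prior variance, 4 pathway genes were called higher and 0 interferon-stimulated genes lower. Voom called 2042 genes higher and 3066 lower over all genes, 4 pathway genes lower and 2 interferon-stimulated genes lower. A mean RPKM of at least 1, which leaves fewer genes to test, called 8 interferon-stimulated genes higher.

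Leaving out each library in turn, with 2 libraries left in that group, gave 501 to 927 genes higher and 470 to 1015 lower over all genes. The pathway lists had 2 to 7 higher and 0 to 2 lower, and the interferon-stimulated genes 9 to 11 higher and 0 to 1 lower. Of the 9 class I genes, the number called stayed at 1 higher and 0 lower. The ratios kept their directions. *HLA-F*, with the fewest reads of the 9 genes, had the largest standard error of them.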
